A study of Oryctolagus cuniculus with 24 samples.

Results

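Chemokines, IL-6 family members and CSF1 were followed in rabbit corneal stromal cells in culture: 9 genes were listed by symbol, and 7 of the 9 were found by an exact match of the gene name in the deposited table of 23428 genes. They are the chemokines CCL2, CXCL12 and CX3CL1, the colony-stimulating factor CSF1, the IL-6 family cytokines IL6 and LIF, and IL6ST, the receptor chain that this family shares. CXCL14 and IL11, the other two, were not analysed here. All 7 passed the filter on low counts, beside 13308 genes in all.

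Corneal keratocytes are the resident cells of the corneal stroma. Primary rabbit keratocytes at their first passage were plated on glass coated with collagen and kept for 6 days, in 3 conditions with 8 bulk RNA-seq libraries each. The TGF-β1 group, called myofibroblast in the labels, received serum-free medium with 5 ng/mL of TGF-β1 added, starting on day 1. The FBS group, called fibroblast, stayed in serum-free medium until day 3 and then received DMEM with 10% fetal bovine serum. The serum-free group, called keratocyte, had serum-free medium throughout. The FBS group thus differs from both others in base medium and time of exposure as well as in serum, and these cannot be told apart. The labels do not say whether replicates are separate animals or cultures. The p-values therefore measure no more than the spread among these 24 libraries, some or all of which may be technical.

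Chemokines are small secreted proteins that steer migrating leukocytes through receptors on those cells. CCL2 attracts monocytes, CXCL12 acts on cells that carry CXCR4, and CX3CL1 is made as a membrane-anchored protein that can be shed and is read by CX3CR1. CSF1 keeps macrophages alive and makes them divide. IL6 and LIF act through receptor complexes that include IL6ST, also called gp130, and pass their signal on through JAK kinases and STAT3. Stromal cells of the injured cornea are a known source of such signals. In bulk libraries, fewer cells of a type and less RNA per cell cannot be told apart.

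Total counts per library were 15410285 to 20911192 with TGF-β1, 15659561 to 22528261 with FBS and 17151397 to 21540864 in serum-free medium. Library names in the table run 5 to 12 per condition. Replicates 1 to 4 (numbers 5 to 8, set 1) stood apart from replicates 5 to 8 (numbers 9 to 12, set 2) within every condition. What the numbers stand for is not given in the labels. Between set 2 and set 1, 28.0% of genes tested differed within the TGF-β1 group, 48.4% within the FBS group and 43.7% within the serum-free group. In the FBS group, set 2 was itself uneven: replicates 5 and 6 lay as far from 7 and 8 (47.3 to 74.9 as chi-square over the number of genes) as set 1 did (51.1 to 67.9). For the 7 genes, values within the sets are given where the effects of the sets differed past the threshold or where a call held in 1 set alone. The summed level of 8 keratocyte markers was 14766 to 24920 CPM (counts scaled to library size) with TGF-β1, 2929 to 5399 CPM with FBS and 62546 to 99702 CPM in serum-free medium. That of 5 myofibroblast markers was 4348 to 6353, 733 to 1682 and 43.8 to 91.1 CPM in the TGF-β1, FBS and serum-free groups. Single markers did not all follow these sums. With TGF-β1 against FBS, 2 of the 5 myofibroblast markers were called higher and 2 lower. Of the 8 keratocyte markers 4 were called higher and 2 lower there, where 73.3% of all genes were called. With FBS against serum-free medium 4 of the 5 were called higher and 1 lower. The summed level of 17 leukocyte markers was 251 to 369 CPM with TGF-β1, 149 to 228 CPM with FBS and 7.44 to 12.6 CPM in serum-free medium. LAPTM5, a lysosomal membrane protein, had means of 305, 171 and 4.01 CPM in those groups, and CD68, also lysosomal, 6.63, 18.3 and 2.35 CPM. Together these 2 made up nearly all of the sum in the treated groups and less of it in serum-free medium. Of the 17, 4 passed the filter, and these 2 of them were called higher in both treatments against serum-free medium. The defining marker PTPRC, the common leukocyte antigen, averaged 0.0288, 0.0972 and 0.147 CPM, and MS4A1, a B cell marker, had no counts. The part of leukocytes in the results below was not tested.

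IL6 stood under the level of the filter (0.56 CPM) in all 8 serum-free libraries and was kept through its treated ones, so it had to differ from serum-free medium and is left out of the counts against that group. In the comparison of TGF-β1 with serum-free medium, 4 of the other 6 genes were called at an adjusted p under 0.05. CSF1 and LIF were higher, CCL2 and CX3CL1 were lower, and CXCL12 and IL6ST did not pass. Over all genes tested, 64.3% were called in that comparison, 31.2% higher and 33.1% lower. All 6 were called for FBS against serum-free medium, 5 higher and CX3CL1 lower, where 80.0% of all genes were called (39.5% higher and 40.5% lower). All 7 were called for TGF-β1 against FBS, with LIF higher and the other 6 lower, where 73.3% of all genes were called (36.9% higher and 36.4% lower). Counts of calls this near to the background say little by themselves, and what follows rests on the size and direction of the single changes. The median log2 fold change was 0.13 and 1.63 over the 6 genes in the first and second of these comparisons and -0.95 over the 7 in the third, against -0.03, -0.04 and 0.01 over all genes tested.

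**Figure D1:**
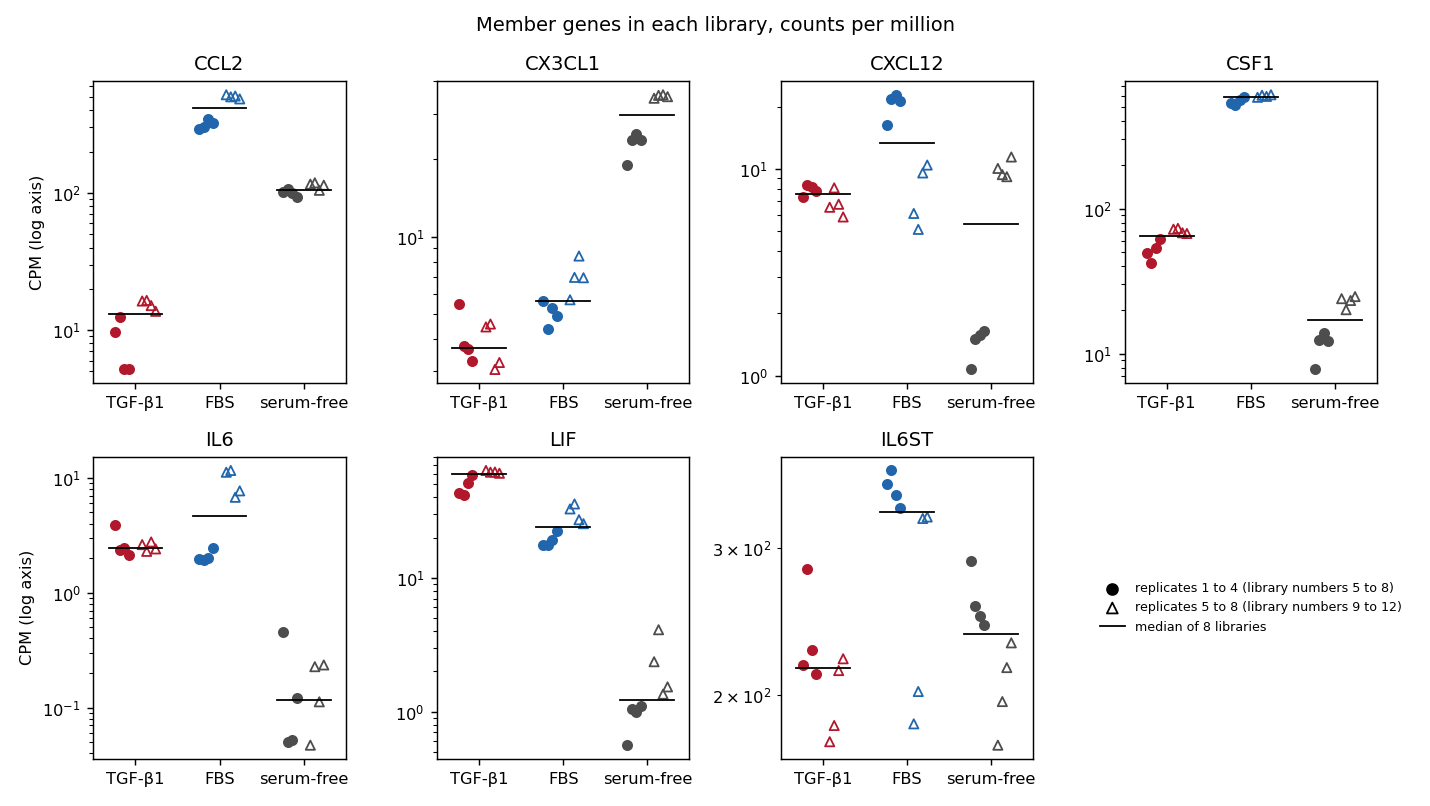
Each panel shows 1 gene in all 24 libraries as CPM on a log axis, with TGF-β1, FBS and serum-free libraries from left to right. Filled circles are replicates 1 to 4, open triangles are replicates 5 to 8 and the bar is the median of 8 libraries. CCL2, CSF1 and LIF separate all 3 groups, while CXCL12 splits by set within the FBS and serum-free groups.

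CCL2, the monocyte attractant, was moved in opposite directions by the treatments. Its level was 5.17 to 16.5 CPM with TGF-β1 (median 13.1), 294 to 519 CPM with FBS (median 413) and 94.1 to 118 CPM in serum-free medium (median 106). No library of one group reached the range of another. Mean levels were 11.8 ± 4.61 CPM with TGF-β1, 409 ± 102 CPM with FBS and 107 ± 8.60 CPM in serum-free medium (SD, n = 8 each). On the log2 scale CCL2 fell by 3.18 with TGF-β1 against serum-free medium (SE 0.21, adjusted p = 6.94e-13), so that the mean was 9.07 times lower. It rose by 1.94 with FBS against serum-free medium (SE 0.20, adjusted p = 1.09e-09). Between the treatments, TGF-β1 over FBS, the log2 fold change was -5.12 (SE 0.23, adjusted p = 9.72e-17), a mean 34.8 times lower, and its size lay above that of 97.9% of genes tested. Of all genes, 33.9% had groups that did not overlap in the first of these comparisons, 52.9% in the second and 46.2% in the third.

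The direction of the CCL2 changes was the same within each set. For TGF-β1 against serum-free medium, set 1 gave a log2 fold change of -3.61 and set 2 one of -2.87, and the difference of 0.73 passed its own test (adjusted p = 0.0293). Of all genes, 10.3% had such a set-by-treatment difference in that comparison. CCL2 lies at chr19:23720271-23721930 on the plus strand, in the table's coordinates, for which no genome build is given in the sources used here.

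CX3CL1, the membrane-anchored chemokine, was lower in both treatments. It had 3.05 to 5.47 CPM with TGF-β1 (median 3.71), 4.39 to 8.41 CPM with FBS (median 5.65) and 18.9 to 35.5 CPM in serum-free medium (median 29.6). Every serum-free library was above every treated one, and the treated groups overlapped. The log2 fold change was -2.88 with TGF-β1 against serum-free medium (SE 0.16, adjusted p = 3.53e-14) and -2.27 with FBS against serum-free medium (SE 0.16, adjusted p = 5.69e-13). Between TGF-β1 and FBS it was -0.61 (SE 0.16, adjusted p = 0.00152). With TGF-β1 against serum-free medium the fall was smaller within set 1 (-2.49) than within set 2 (-3.19), and the difference passed its test (adjusted p = 0.0386). The smaller difference between the treatments was -0.32 within set 1 (adjusted p = 0.0927), which did not pass, and -0.88 within set 2 (adjusted p = 1.21e-04).

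Vascular endothelial cells also make CX3CL1, and the summed level of 9 markers of such cells also fell in both treatments against serum-free medium. The sum was 65.4 to 127 CPM with TGF-β1, 21.3 to 33.5 CPM with FBS and 267 to 387 CPM in serum-free medium. Most of it was KDR, a VEGF receptor, at 72.9, 13.5 and 305 CPM in the TGF-β1, FBS and serum-free groups. Of the defining markers, 3 had far lower levels than KDR: PECAM1 averaged 0.283, 0.679 and 0.0652 CPM, VWF 0.270, 0.0482 and 0.929 CPM, and CDH5 6.09, 1.93 and 13.1 CPM in those groups. Between the treatments the sum was higher with TGF-β1, while CX3CL1 was lower. The part of such cells in the CX3CL1 result was not tested. CX3CL1 lies at chr5:13525844-13539039 on the plus strand.

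CXCL12, the ligand of CXCR4, gave no steady answer across the sets. It had 5.85 to 8.35 CPM with TGF-β1 (median 7.55), 5.09 to 22.8 CPM with FBS (median 13.4) and 1.07 to 11.4 CPM in serum-free medium (median 5.40). All 3 groups overlapped. In serum-free medium the libraries of set 1 were at 1.07, 1.499, 1.56 and 1.65 CPM, and those of set 2 at 10.0, 9.37, 9.16 and 11.4 CPM. With FBS the order was turned round, with 16.4, 21.7, 22.8 and 21.4 CPM in set 1 and 6.08, 5.09, 9.55 and 10.4 CPM in set 2. With TGF-β1 the sets differed little, at means of 7.91 CPM in set 1 and 6.80 CPM in set 2.

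Pooled over the sets, CXCL12 had a log2 fold change of 0.36 with TGF-β1 against serum-free medium (SE 0.43, adjusted p = 0.466), which did not pass. For FBS against serum-free medium it was 1.31 (SE 0.42, adjusted p = 0.00614). Set 1 alone gave 2.46 for TGF-β1 (adjusted p = 5.54e-10) and 3.84 for FBS (adjusted p = 1.77e-13). Set 2 alone gave -0.55 for TGF-β1 (adjusted p = 0.0317) and -0.35 for FBS (adjusted p = 0.126). The set-by-treatment terms were -3.01 (adjusted p = 3.09e-08) and -4.19 (adjusted p = 1.46e-11) in the same comparisons, and 22.4% of all genes had a term past the threshold for FBS against serum-free medium. So the pooled rise with FBS does not hold within both sets.

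For TGF-β1 against FBS the pooled CXCL12 value was -0.95 (SE 0.42, adjusted p = 0.0436). It was -1.38 within set 1 (adjusted p = 3.61e-08) and -0.20 within set 2 (adjusted p = 0.395), and with the replicate block it was -0.97 (adjusted p = 0.0665). The call was lost without any single one of TGF-β1 replicates 1 to 8 or of FBS replicates 1 to 4, at adjusted p values of 0.0513 to 0.0896. CXCL12 lies on the unplaced sequence Un0110 of the table, from 205523 to 218507 on the minus strand.

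CSF1, the growth factor of macrophages, rose in both treatments and by far more with FBS. It had 42.5 to 73.0 CPM with TGF-β1 (median 64.3), 514 to 607 CPM with FBS (median 587) and 7.80 to 24.8 CPM in serum-free medium (median 17.0). The 3 groups did not overlap, and the FBS libraries lay closest together in proportion to their level. The log2 fold change was 1.82 with TGF-β1 against serum-free medium (SE 0.18, adjusted p = 1.42e-09) and 5.05 with FBS against serum-free medium (SE 0.20, adjusted p = 5.77e-18), a mean 33.1 times higher. Between TGF-β1 and FBS it was -3.23 (SE 0.18, adjusted p = 1.48e-14).

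Both rises of CSF1 were smaller within set 2. TGF-β1 against serum-free medium gave 2.16 in set 1 and 1.61 in set 2 (difference -0.55, adjusted p = 0.0311). FBS against serum-free medium gave 5.57 in set 1 and 4.70 in set 2 (difference -0.87, adjusted p = 3.13e-04). The serum-free libraries were the ones that differed most between the sets, with means of 11.6 CPM in set 1 and 23.02 CPM in set 2. CSF1 lies at chr13:54246013-54264654 on the minus strand.

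IL6, the cytokine that names the family, was close to the limit of detection in serum-free medium. There its libraries held 1 to 9 counts each, or 0.0472 to 0.459 CPM. It reached 2.12 to 3.90 CPM with TGF-β1 (median 2.44) and 1.92 to 11.6 CPM with FBS (median 4.61), and no serum-free library reached the range of either treatment. The fitted log2 fold change was 3.96 with TGF-β1 against serum-free medium (SE 0.50), and 3.93 and 4.01 within sets 1 and 2. With FBS against serum-free medium it was 5.08 (SE 0.49), with 3.56 in set 1 alone and 5.90 in set 2 alone. These sizes rest on 24 counts over the 8 serum-free libraries and are given as a description, with no test.

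Which treatment had more IL6 depended on the set. In set 1 the FBS libraries had 1.97, 1.92, 2.00 and 2.46 CPM, within or just under the range of TGF-β1. In set 2 the FBS libraries had 11.2, 11.6, 6.77 and 7.69 CPM, all above every TGF-β1 library. The pooled log2 fold change of -1.12 with TGF-β1 against FBS (SE 0.37, adjusted p = 0.00873) stood beside 0.37 within set 1 (adjusted p = 0.329) and -1.88 within set 2 (adjusted p = 2.63e-06). The set-by-treatment term was -2.25 (adjusted p = 1.51e-04), and 23.9% of all genes had such a term in that comparison. Without FBS replicates 5 and 6, the highest in IL6, the pooled value was -0.54 (adjusted p = 0.154) and no longer passed. IL6 lies at chr10:7771596-7776408 on the plus strand.

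LIF, the leukemia inhibitory factor, was the only one of the 7 genes that was higher with TGF-β1 than with FBS. It had 41.6 to 63.5 CPM with TGF-β1 (median 59.6), 17.5 to 35.7 CPM with FBS (median 23.9) and 0.560 to 4.09 CPM in serum-free medium (median 1.22). The 3 groups did not overlap. The log2 fold change was 5.08 with TGF-β1 against serum-free medium (SE 0.27, adjusted p = 9.77e-15), a mean 33.9 times higher, and its size lay above that of 99.0% of genes tested. It was 3.92 with FBS against serum-free medium (SE 0.26, adjusted p = 3.12e-13). Between TGF-β1 and FBS it was 1.16 (SE 0.22, adjusted p = 3.64e-05), with 1.33 in set 1 and 1.03 in set 2. LIF lies on the unplaced sequence Un0025 of the table, from 3396631 to 3402421 on the minus strand.

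IL6ST, the signalling chain that IL6 and LIF share, moved least. It had 176 to 283 CPM with TGF-β1 (median 216), 185 to 371 CPM with FBS (median 331) and 174 to 290 CPM in serum-free medium (median 237). All 3 groups overlapped. TGF-β1 against serum-free medium gave a log2 fold change of -0.10 (SE 0.13, adjusted p = 0.54). It was 0.40 with FBS against serum-free medium (SE 0.13, adjusted p = 0.00804) and -0.50 with TGF-β1 against FBS (SE 0.13, adjusted p = 0.00169).

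The IL6ST values with FBS were uneven. FBS replicates 5 and 6 had 185 and 202 CPM, and the other 6 FBS libraries had 325 to 371 CPM. Without that pair the rise with FBS against serum-free medium was 0.58 (adjusted p = 1.23e-05). Within set 2 alone it was 0.35 and did not pass (adjusted p = 0.0645). The IL6ST transcript is longer than 92.9% of those tested, and the deviation of a library from its condition mean ran with gene length, with Spearman correlations of -0.528 to 0.0369 in set 2 of the FBS group and of 0.284 to 0.433 in its set 1. The part of length in the IL6ST result was not tested. IL6ST lies at chr11:71905031-71961363 on the minus strand.

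**Figure D2:**
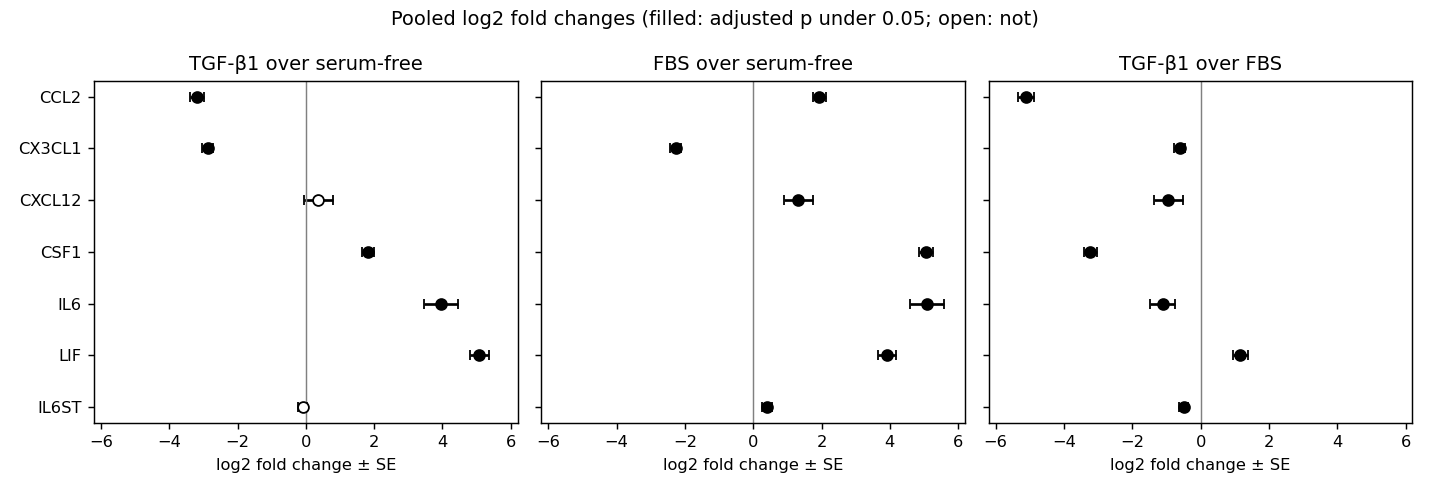
Log2 fold changes (x axis) from edgeR, with an SE derived from its F statistic, for the 7 genes (rows) in the 3 comparisons, over all 24 libraries. Filled points passed at an adjusted p under 0.05 and open points did not. IL6 against serum-free medium is filled, yet it had to differ through the filter, and its points there are a description, with no test. CCL2 lies at -3.18 with TGF-β1 and at 1.94 with FBS against serum-free medium, whereas CSF1, IL6 and LIF lie above 0 in both.

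**Figure D3:**
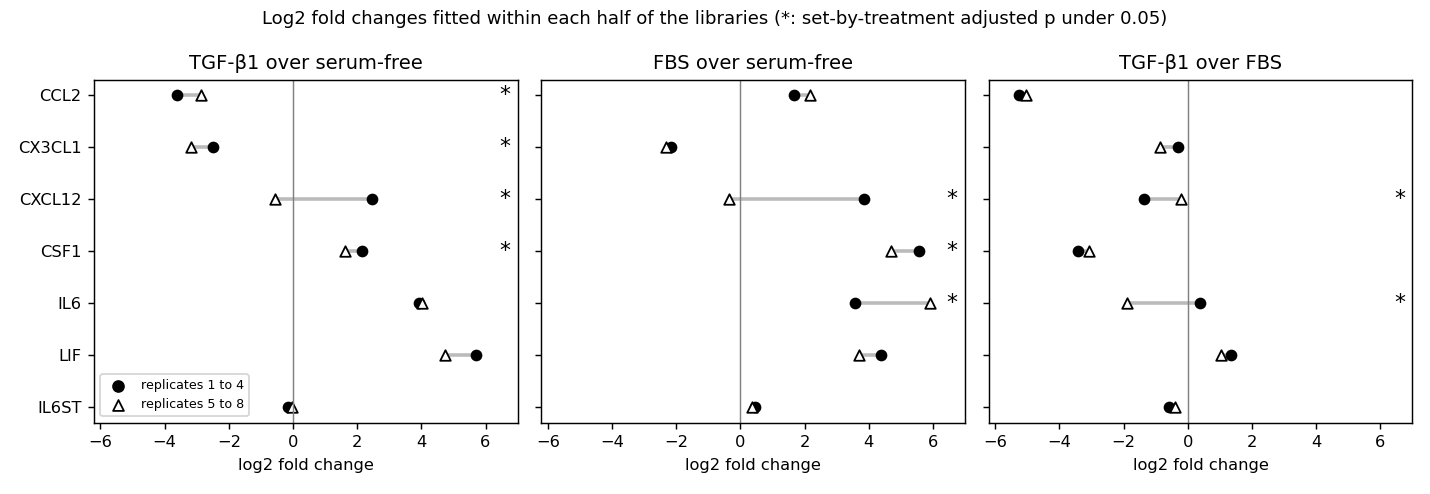
Log2 fold changes (x axis) fitted separately in replicates 1 to 4 (filled circles) and replicates 5 to 8 (open triangles) for the 7 genes in the 3 comparisons. A star marks a set-by-treatment term past an adjusted p of 0.05. That of IL6 with FBS against serum-free medium rests on 1 to 9 counts a serum-free library and counts as no test. The longest lines are those of CXCL12 against serum-free medium, at 2.46 and -0.55 with TGF-β1 and at 3.84 and -0.35 with FBS.

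Levels of different genes can be set side by side only per length, as FPKM. Summed over the 7 genes, the level was 86.5 ± 9.16 FPKM with TGF-β1, 878 ± 167 FPKM with FBS and 224 ± 13.8 FPKM in serum-free medium (SD, n = 8 each). CCL2 made up 21.8% of the sum with TGF-β1, 75.8% with FBS and 78.4% in serum-free medium. LIF made up 17.1% with TGF-β1, 0.742% with FBS and 0.189% in serum-free medium. CSF1 made up 17.8%, 16.9% and 1.93% in the TGF-β1, FBS and serum-free groups. By mean FPKM among the 13308 genes tested, CCL2 stood at position 3606 with TGF-β1, 103 with FBS and 283 in serum-free medium.

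The order of the 7 genes by mean FPKM differed between the conditions. With TGF-β1, IL6ST was first at 31.2 ± 4.45 FPKM. CCL2 at 19.4 ± 7.67, CSF1 at 15.4 ± 2.93 and LIF at 14.8 ± 2.44 FPKM followed with ranges that overlapped, and the highest CCL2 library also overlapped IL6ST. IL6 at 2.33 ± 0.494 and CXCL12 at 2.32 ± 0.279 FPKM could not be separated, and CX3CL1 was last at 1.13 ± 0.238 FPKM. With FBS, CCL2 at 672 ± 165, CSF1 at 144 ± 8.42 and IL6ST at 43.9 ± 10.5 FPKM stood clear of each other. LIF at 6.57 ± 1.78, IL6 at 5.04 ± 3.66 and CXCL12 at 4.47 ± 2.31 FPKM overlapped, and CX3CL1 at 1.73 ± 0.380 FPKM overlapped the lowest of these. In serum-free medium CCL2 at 176 ± 13.4 and IL6ST at 33.3 ± 5.41 FPKM led. CX3CL1 at 8.29 ± 1.86, CSF1 at 4.36 ± 1.60, CXCL12 at 1.79 ± 1.44, LIF at 0.433 ± 0.297 and IL6 at 0.145 ± 0.127 FPKM followed, each overlapping the next.

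**Figure D4:**
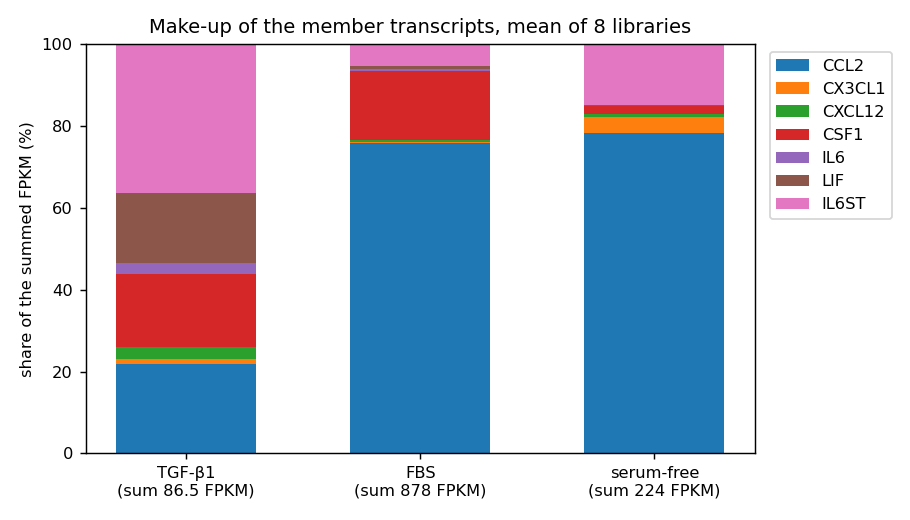
Stacked bars give the share (%) of each of the 7 genes in their summed FPKM, as the mean of 8 libraries per condition, with the summed level under each bar. CCL2 takes 21.8% of the sum with TGF-β1, 75.8% with FBS and 78.4% in serum-free medium.

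The other chemokine ligands of the table were mostly low. Of 21 rows, 6 passed the filter. In TGF-β1 against serum-free medium 3 of the 6 fell and none rose (50%, against 64.3% of all genes), a count that ran from 0 to 3 over 38 other settings and fits. It fell under 2 with the 16 libraries compared alone, with counts summed over neighbouring replicates, and without TGF-β1 replicate 3 or serum-free replicate 5. In further fits the CXCL8 call was lost, as given below. With FBS against serum-free medium 4 rose and 1 fell (83.3%, against 80.0%), and with TGF-β1 against FBS 5 fell and none rose (83.3%, against 73.3%). CCL11 and CCL28 averaged under the level of the filter with TGF-β1 and were kept through other libraries. Without them 2 of 4 fell with TGF-β1 against serum-free medium and 3 of 4 with TGF-β1 against FBS. CXCL8, the main neutrophil attractant, had 25.8 ± 14.1 CPM with TGF-β1, 253 ± 73.2 CPM with FBS and 41.6 ± 16.05 CPM in serum-free medium. CCL7, a close relative of CCL2 that also attracts monocytes, had 10.8 ± 5.78 CPM with TGF-β1, 109 ± 37.4 CPM with FBS and 21.7 ± 8.78 CPM in serum-free medium.

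The directions of CXCL8 and CCL7 were those of CCL2, with smaller falls. FBS against serum-free medium gave log2 fold changes of 2.60 for CXCL8 (adjusted p = 2.01e-08) and of 2.32 for CCL7 (adjusted p = 1.27e-07), and no libraries overlapped. TGF-β1 against serum-free medium gave -1.003 for CCL7 (adjusted p = 0.00589) and -0.69 for CXCL8 (adjusted p = 0.0453), with overlapping groups. The CCL7 call was lost with counts summed over neighbouring replicates (-0.98, adjusted p = 0.0634). The CXCL8 call was lost without any single one of TGF-β1 replicates 1 to 4 or of serum-free replicates 2, 3 and 5 to 8, at adjusted p values of 0.0521 to 0.0993. That call was also lost with no filter (-0.67, adjusted p = 0.0545), with the 16 libraries compared alone and with summed neighbours. CCL11, an eosinophil attractant, rose by 3.05 with FBS against serum-free medium (adjusted p = 2.87e-06), at 1.66 CPM in set 1 and 9.31 CPM in set 2 of the FBS group. Close relatives may share reads, so the split of counts among CCL2, CCL7 and related rows is uncertain.

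The chemokine receptors of leukocytes were at or near 0. CCR2, the receptor of CCL2, had 0 counts with TGF-β1, which allows up to 0.024 CPM, 6 counts in all FBS libraries together and 0 counts in serum-free medium, which allows up to 0.0202 CPM. CX3CR1, the receptor of CX3CL1, had 2, 0 and 10 counts over the 8 TGF-β1, FBS and serum-free libraries. CXCR4, a receptor of CXCL12, averaged 0.359 CPM with TGF-β1, 0.0551 CPM with FBS and 0.107 CPM in serum-free medium. CSF1R, the receptor of CSF1, averaged 0.834, 0.495 and 0.647 CPM in those groups and passed in none of the pooled comparisons over 24 libraries. Between TGF-β1 and FBS it was higher within set 2 (1.51, adjusted p = 0.00334), with the 16 libraries compared alone (0.73, adjusted p = 0.0387) and without serum-free replicate 1 (0.73, adjusted p = 0.0336), beside 0.73 pooled (adjusted p = 0.102).

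Of 23 receptor rows, 4 passed the filter: CCR7 and the atypical receptors ACKR1, ACKR3 and ACKR4, which bind and remove chemokines without the usual signal. CCR7, a signalling receptor of leukocytes, averaged 0.506 CPM with TGF-β1, 0.726 CPM with FBS and 0.350 CPM in serum-free medium, and reached the level of the filter in 2, 7 and 1 of the 8 libraries. ACKR3, which binds CXCL12, had 19.5 ± 2.14 CPM with TGF-β1, 88.0 ± 8.78 CPM with FBS and 90.4 ± 17.9 CPM in serum-free medium. Its log2 fold change was -2.21 with TGF-β1 against serum-free medium (adjusted p = 1.89e-15) and -0.04 with FBS against serum-free medium (adjusted p = 0.732). ACKR4 fell in both treatments, by 2.67 with TGF-β1 (adjusted p = 2.55e-12) and by 4.82 with FBS (adjusted p = 4.23e-17) against serum-free medium on the log2 scale. ACKR1, which binds CCL2 and CXCL8 among others, also fell in both, by 2.90 with TGF-β1 (adjusted p = 5.41e-12) and by 3.31 with FBS (adjusted p = 1.44e-13).

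**Figure D5:**
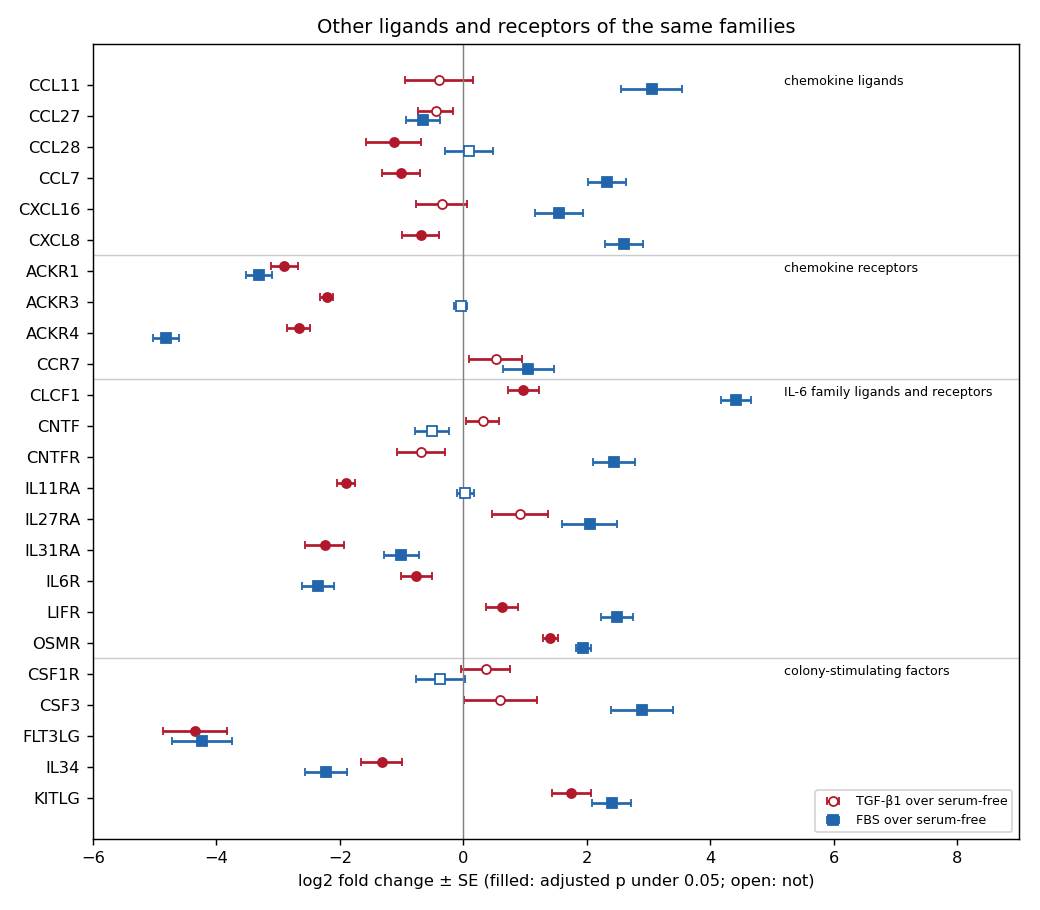
Log2 fold changes (x axis) with their SE for the tested ligands and receptors of 4 lists (rows) with TGF-β1 (red circles) and FBS (blue squares) over serum-free medium. Filled symbols passed at an adjusted p under 0.05. Those of FLT3LG, kept by the filter through its serum-free libraries, and of CSF3, kept mainly through its FBS libraries, count as no test. ACKR3 lies at -2.21 with TGF-β1 and -0.04 with FBS, and CLCF1 at 0.97 and 4.42.

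Of 12 other genes of the IL-6 family in the table, 9 passed the filter. Against serum-free medium, 3 rose and 3 fell with TGF-β1 and 5 rose and 2 fell with FBS, and between TGF-β1 and FBS 2 rose and 7 fell. The shares called were 66.7%, 77.8% and 100%, against 64.3%, 80.0% and 73.3% of all genes. CNTFR and IL31RA averaged under the level of the filter with TGF-β1 and were kept through other libraries. Of the 7 genes without them, with TGF-β1 3 rose and 2 fell against serum-free medium, and 2 rose and 5 fell against FBS. OSMR, which pairs with IL6ST to bind oncostatin M, had 95.8 ± 20.7 CPM with TGF-β1, 138 ± 23.1 CPM with FBS and 36.0 ± 3.17 CPM in serum-free medium. It rose by 1.41 with TGF-β1 (adjusted p = 1.2e-10) and by 1.94 with FBS (adjusted p = 8.08e-14) against serum-free medium.

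LIFR, which binds LIF, had 4.22 ± 0.963 CPM with TGF-β1, 15.3 ± 6.05 CPM with FBS and 2.73 ± 1.05 CPM in serum-free medium. LIFR thus had its highest level with FBS, and LIF had its highest level with TGF-β1. LIFR rose by 2.48 with FBS against serum-free medium (adjusted p = 1.67e-09), with 3.36 in set 1 alone and 1.58 in set 2 alone. It rose by 0.63 with TGF-β1 against serum-free medium (adjusted p = 0.0366), with 0.999 in set 1 alone (adjusted p = 0.00174) and 0.37 in set 2 alone (adjusted p = 0.211). IL6R, which binds IL6, fell by 2.35 with FBS against serum-free medium (adjusted p = 6.09e-09) and by 0.76 with TGF-β1 against serum-free medium (adjusted p = 0.0087, within set 1 alone 0.0514).

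IL11RA, the receptor of IL11, was among the higher of these receptors. It had 41.8 ± 7.40 CPM with TGF-β1, 159 ± 47.0 CPM with FBS and 156 ± 16.7 CPM in serum-free medium. It fell by 1.90 with TGF-β1 against serum-free medium (adjusted p = 1.05e-11), and with FBS against serum-free medium the pooled log2 fold change was 0.03 (adjusted p = 0.851), with -0.27 in set 1 alone (adjusted p = 0.00533) and 0.27 in set 2 alone (adjusted p = 0.111). CLCF1, a ligand of the family that acts through CNTFR, rose by 4.42 with FBS (adjusted p = 3.7e-15) and by 0.97 with TGF-β1 (adjusted p = 0.00156, within set 1 alone 0.102) against serum-free medium.

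Among the other colony-stimulating factors and their receptors, 5 of 9 passed the filter. Of these, with TGF-β1 against serum-free medium 1 rose and 2 fell, with FBS against serum-free medium 2 rose and 2 fell, and with TGF-β1 against FBS 1 rose and 2 fell, a count of 3 that ran from 1 to 4 over 38 other settings and fits. The shares called were 60%, 80% and 60%, against 64.3%, 80.0% and 73.3% of all genes. CSF3 and FLT3LG averaged under the level of the filter in a group of each comparison. Without them, 1 rose and 1 fell of the 3 genes left in each comparison. With TGF-β1 against FBS neither the IL34 call (0.35, adjusted p = 0.217) nor the KITLG call (-0.18, adjusted p = 0.577) held within set 2. The IL34 call was also lost without TGF-β1 replicate 5 (0.76, adjusted p = 0.0557), with total library size only and with counts summed over neighbouring replicates. Leaving out any 1 of TGF-β1 replicates 4 to 8, FBS replicates 1 to 4 or serum-free replicates 6 and 8 also lost the KITLG call. Adjusted p values in those fits were 0.0502 to 0.104. The KITLG call was lost too with the 16 libraries compared alone, with summed neighbours and on log2 FPKM. IL34, which also binds CSF1R, went the other way from CSF1. It had 3.94 ± 1.23 CPM with TGF-β1, 2.12 ± 1.44 CPM with FBS and 9.85 ± 3.83 CPM in serum-free medium, and fell by 1.32 with TGF-β1 (adjusted p = 0.00115) and by 2.22 with FBS (adjusted p = 1.59e-06) against serum-free medium. KITLG, the ligand of KIT, rose by 1.75 with TGF-β1 (adjusted p = 2.6e-05) and by 2.40 with FBS (adjusted p = 1.1e-07) against serum-free medium, the rise with FBS being 3.04 in set 1 alone and 1.39 in set 2 alone. FLT3LG, the ligand of FLT3, averaged 0.163 CPM with TGF-β1, 0.174 CPM with FBS and 3.42 CPM in serum-free medium. It passed the filter through its serum-free libraries alone, so its calls against that group were bound to come.

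Of 28 tested genes of the JAK-STAT3 pathway and its feedback, 15 rose and 6 fell with TGF-β1 against serum-free medium. FBS against serum-free medium saw 12 higher and 9 lower, and TGF-β1 against FBS 10 higher and 8 lower. The shares called were 75%, 75% and 64.3% in that order, against 64.3%, 80.0% and 73.3% of all genes. HP and SOCS1 averaged under the level of the filter in a group of each comparison. Of the 26 genes without them, 15 rose and 5 fell, 12 rose and 8 fell, and 10 rose and 8 fell in that order. SOCS3, which IL-6 family signals induce and which binds IL6ST, had 6.08 ± 1.65 CPM with TGF-β1, 29.6 ± 9.01 CPM with FBS and 1.90 ± 0.674 CPM in serum-free medium. Its log2 fold change was 1.67 with TGF-β1 (adjusted p = 2.23e-07) and 3.96 with FBS (adjusted p = 6.45e-15) against serum-free medium, and -2.29 with TGF-β1 against FBS (adjusted p = 1.03e-10). SOCS1, a related inhibitor of JAK kinases, averaged 0.233 CPM with TGF-β1, 0.270 CPM with FBS and 6.07 CPM in serum-free medium, and like FLT3LG it passed the filter through its serum-free libraries. STAT3 rose by 0.88 with TGF-β1 (adjusted p = 3.41e-11) and by 0.85 with FBS (adjusted p = 2.51e-11) against serum-free medium.

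CEBPD, a transcription factor of the acute-phase response, had 44.0 ± 7.01 CPM with TGF-β1, 79.0 ± 55.6 CPM with FBS and 7.69 ± 3.59 CPM in serum-free medium. With FBS it averaged 30.3 CPM in set 1 and 128 CPM in set 2, the same order of sets as IL6. Between TGF-β1 and FBS, set 1 alone gave a log2 fold change of 0.52 (adjusted p = 0.00108) and set 2 alone gave -1.53 (adjusted p = 8.53e-07).

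Of 21 tested genes of the NF-κB pathway, which drives many chemokine genes, 11 rose and 4 fell with TGF-β1 against serum-free medium. For FBS against serum-free medium 13 rose and 5 fell, and for TGF-β1 against FBS 6 rose and 5 fell. The shares called were 71.4%, 85.7% and 52.4%, against 64.3%, 80.0% and 73.3% of all genes. BIRC3, an NF-κB target that inhibits cell death, had 3.82 ± 1.74 CPM with TGF-β1, 35.2 ± 7.21 CPM with FBS and 2.00 ± 1.84 CPM in serum-free medium. It rose by 4.13 with FBS against serum-free medium (adjusted p = 1.85e-09), and its log2 fold change with TGF-β1 was 0.93 (adjusted p = 0.0603), with 2.45 in set 1 alone (adjusted p = 1.09e-06) and 0.55 in set 2 alone (adjusted p = 0.0668). TNFAIP3, which curbs the pathway, fell by 1.08 with TGF-β1 (adjusted p = 0.00126) and by 1.57 with FBS (adjusted p = 1.16e-05) against serum-free medium.

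Of 11 genes tied to shedding and processing of such ligands, proteases and their regulators, 8 rose and 2 fell with TGF-β1 against serum-free medium. In FBS against serum-free medium 5 rose and 5 fell, and in TGF-β1 against FBS 6 rose and 5 fell. The shares called were 90.9%, 90.9% and 100%, against 64.3%, 80.0% and 73.3% of all genes. DPP4 averaged under the level of the filter with TGF-β1 and was kept through other libraries. Of the 10 genes without it, with TGF-β1 8 rose and 1 fell against serum-free medium, and 6 rose and 4 fell against FBS. ADAM10 and ADAM17, the proteases that release CX3CL1 from the membrane, rose by 0.69 (adjusted p = 3.1e-07) and 0.63 (adjusted p = 1.61e-05) with TGF-β1, and by 1.37 (adjusted p = 3.12e-13) and 0.94 (adjusted p = 1.37e-08) with FBS, against serum-free medium. MMP2 and MMP14, which can cleave chemokines, rose by 2.23 (adjusted p = 6.53e-11) and 2.5004 (adjusted p = 1.62e-14) with TGF-β1 against serum-free medium. Both fell with FBS against serum-free medium, by 0.76 for MMP2 (adjusted p = 3.85e-04) and by 0.45 for MMP14 (adjusted p = 0.00296).

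For each of the 7 genes, the genes with the most similar log2 CPM were taken over the 24 libraries. The libraries fall into 3 conditions, so such a correlation follows mostly the condition means, and the value within conditions is given beside it. The nearest to CSF1 was EPHA2 (Pearson r 0.99, within conditions 0.75), to LIF SYT11 (0.99 and 0.72) and to CX3CL1 ANKRD13A (0.98 and 0.74). The nearest to CCL2 was SLC1A3 (0.97 and 0.36) and to IL6 EXT1 (0.97 and 0.77), with CEBPD next (0.95 and 0.76). The nearest to IL6ST was CASP8AP2 (0.97 and 0.96) and to CXCL12 ZNF668, whose value was the lowest of these (0.83 and 0.74).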

How the data were processed

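RNA-seq was done on 24 libraries of primary rabbit keratocytes, 8 per condition. Per the labels' protocols, RNA was taken with a column kit and libraries were made by a sequencing company. For the aligner, counting program, strand setting, genome build and annotation the sources used here give nothing. The authors deposited a table of whole-number counts per gene and library with no normalization, and a table of FPKM, which are the same counts over gene length and over a library size scaled by the authors. Gene length and locus are those of the table.

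The deposited counts went into edgeR 4.0.16 under R 4.3.3 (filterByExpr, TMM, all 24 libraries in 1 fit, quasi-likelihood F-test). P-values were adjusted by Benjamini-Hochberg over the 13308 genes tested, and every adjusted p comes from that test unless another fit is named. For set 1 or set 2 it comes from the same test on those 12 libraries, adjusted over 13478 and 13501 genes. Where another fit or a set-by-treatment term is named, the adjusted p comes from that fit, on log2 FPKM from limma. The SE given with a log2 fold change was derived as its absolute size over the square root of the F statistic. CPM use TMM library sizes. FPKM served to compare genes. Fold changes of single sets, set-by-treatment terms, DESeq2 1.42.0, limma 3.58.1 on log2 FPKM and the settings listed in the closing section were run as alternatives. The fit was first tested on simulated counts with known changes.

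Replicate numbers in the labels were checked for pairing. Residual correlations of the 8 same-numbered pairs were 0.177 to 0.362 for TGF-β1 with serum-free, 0.115 to 0.429 for FBS with serum-free and 0.103 to 0.332 for TGF-β1 with FBS. All are over 0.1, so a fit with a replicate block was run too. No library duplicated another: the lowest chi-square per gene within a condition was 2.85, for FBS replicates 1 and 2. Counting error weighs most on genes with few counts, as IL6 with 29 to 60 counts a library with TGF-β1 and 1 to 9 in serum-free medium. It was not measured apart from the spread between libraries. A count of 0 is given with a limit of 3 counts over the condition, which covers counting error only.

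The members and the lists were chosen with earlier results of these data known. All members are named. From each list and comparison up to 3 called genes with the largest change (at 1 CPM or more on average in the higher condition) and up to 2 with the highest level that were not called could be named, and some were left out for room. The 2 most similar genes per member come from Pearson correlations of log2 CPM. ADAM10, ADAM17, CCR2, CX3CR1, CXCR4 and IL6R are outside the rule and were chosen for their known roles.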

Additional observations from a re-analysis of the deposited data

Results flagged for a closer look

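Among the 7 genes in 3 groups of 8 libraries, 3 values lay apart from the rest of their group by Dixon's test, where chance gives about 1 in 20 groups. IL6 was 3.90 CPM in TGF-β1 replicate 1, against 2.12 to 2.77 CPM in the other 7 libraries, and 0.459 CPM in serum-free replicate 1, against 0.0472 to 0.235 CPM. IL6ST was 283 CPM in TGF-β1 replicate 2, against 176 to 227 CPM in the others.

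In 9 cases a treatment effect differed between set 2 and set 1 at an adjusted p under 0.05 in edgeR's set-by-treatment test. CXCL12 had terms of -3.01 for TGF-β1 against serum-free medium, -4.19 for FBS against serum-free medium and 1.18 (adjusted p = 0.00122) for TGF-β1 against FBS. IL6 had terms of 2.34 for FBS against serum-free medium and -2.25 for TGF-β1 against FBS. The first, though among the 9, rests on 1 to 9 counts a serum-free library and is given as a description, with no test. CSF1 had terms of -0.551 and -0.871 for TGF-β1 and for FBS against serum-free medium. CCL2 had a term of 0.733 and CX3CL1 one of -0.701 (adjusted p = 0.0386) for TGF-β1 against serum-free medium. Of all genes tested, 10.3%, 22.4% and 23.9% had such a term for TGF-β1 against serum-free medium, FBS against serum-free medium and TGF-β1 against FBS.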

How the results depend on the processing

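The 7 genes were refitted in 3 comparisons under 14 settings and with each of the 24 libraries left out, 798 values in all, of which 769 kept their direction and their side of the threshold. The 769 include IL6 with TGF-β1 and with FBS against serum-free medium, which had to differ and kept its side in all these fits. Those IL6 values are no sign of steadiness. The 3 that reversed were CXCL12 within set 2, with TGF-β1 against serum-free medium at -0.5528 and with FBS against serum-free medium at -0.3489, and IL6 with TGF-β1 against FBS within set 1 at 0.3701. Among the other genes tried, STAT3 with TGF-β1 against FBS turned to -0.3659 (adjusted p = 3.53e-05) with total library size only, beside 0.03, and IL11RA with FBS against serum-free medium to -0.2679 within set 1. With TGF-β1 against FBS the CXCL12 call was lost in 6 of the 14 settings and 12 of the 24 fits with a library left out. The IL6 call in that comparison was lost with counts summed over neighbouring replicates (-1.15, adjusted p = 0.0501) and on log2 FPKM with a pseudocount of 0.1 (-0.73, adjusted p = 0.07). With summed neighbours CXCL12 with FBS against serum-free medium was 1.38 (adjusted p = 0.0521).

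Leaving out 1 library gave 8346 to 8858 genes called with TGF-β1 and 10595 to 10791 with FBS against serum-free medium, and 9633 to 9864 with TGF-β1 against FBS, with 5, 7 and 6 to 7 of the members among them, IL6 included. With the replicate block 9385, 11104 and 10311 genes were called, and of the members' calls the block changed that of CXCL12 with TGF-β1 against FBS (-0.97, adjusted p = 0.0665) and no other. Scaling by total library size only moved the median of all genes to -0.17, 0.21 and -0.39 in these comparisons. It moved the split of higher and lower calls to 3215 and 5368 (4155 and 4408 with TMM), 6219 and 4450 (5257 and 5386) and 3131 and 6819 (4917 and 4840). All members' calls kept their direction and side under it. Depth limits IL6 in serum-free medium, at 1 to 9 counts a library.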

Other observations

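Some chemokine genes of the rabbit have only a number in the table. LOC100008716 and LOC100354804 were chosen after their values were seen and do not stand for all such rows. LOC100008921 averaged 0.00895 CPM with TGF-β1, 1.00 CPM with FBS and 0.633 CPM in serum-free medium. With FBS against serum-free medium it did not pass (0.64, adjusted p = 0.103). Sets 1 and 2 alone gave -0.31 and 1.44. LOC103351523 averaged 0.288, 0.0398 and 0.538 CPM in those groups. It and the remaining rows looked at averaged under the level of the filter in every group. LOC100008716, which the table annotates as the rabbit alveolar macrophage chemotactic factor, lies at chr15:76296849-76298684 on the minus strand. It had 0.0574 to 0.780 CPM with TGF-β1 (median 0.272), 59.8 to 299.5 CPM with FBS (median 175) and 0.459 to 3.32 CPM in serum-free medium (median 0.778). No FBS library overlapped the others. The level of the filter was reached in 1 TGF-β1, 8 FBS and 5 serum-free libraries, so the row was kept through its FBS libraries and is described by these levels, with no test. Within the FBS group the sets did not overlap, at 59.8 to 62.6 CPM in set 1 and 288 to 299.5 CPM in set 2.

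LOC100354804, annotated as rabbit permeability factor 2, lies on the same chromosome at chr15:76118677-76136405. It had 0.195 to 1.82 CPM with TGF-β1 (median 0.755), 10.2 to 57.2 CPM with FBS (median 29.4) and 0 to 1.65 CPM in serum-free medium (median 0.982). No FBS library overlapped the others here either, and the TGF-β1 and serum-free libraries overlapped. The sets of the FBS group were again apart, with means of 12.3 CPM in set 1 and 49.0 CPM in set 2. Rows of this family may share reads, so the split between them is uncertain.

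The level of IL6 in the FBS group had the same order of sets as CCL2, LOC100008716 and LOC100354804, with set 2 over set 1 at a log2 ratio of 2.15 for IL6 (adjusted p = 6.16e-07) and 0.67 for CCL2 (adjusted p = 2.69e-04). LIF (0.65, adjusted p = 0.00219) and CX3CL1 (0.47, adjusted p = 0.0119) also had this order, and 48.4% of all genes differed between the sets of the FBS group. CXCL12 and IL6ST had the other order, at -1.40 (adjusted p = 4.78e-07) and -0.44 (adjusted p = 0.0112). What the sets differ in was not tested.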
